A study of Vigna unguiculata subsp. sesquipedalis with 24 samples.

Results

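The drought response of leaves was measured in B47, a landrace of asparagus bean (the vegetable subspecies of cowpea) whose phenotype is given in the labels as "anisohydric like". The 3 B47 leaf arrays of the drought group were compared with the 3 B47 leaf arrays of the well-watered group, chosen by their source labels out of the 24 arrays of the series. The other 18 arrays hold B47 roots and the leaves and roots of B128, an "isohydric like" landrace, under the same 2 treatments. Both terms are those of the labels. In the study's transpiration measurements B47 appeared the most sensitive to drying soil and B128 the least. The study proposes that B47 avoided dehydration most effectively. By the study's measurements drought leaves of B47 held more water than those of B128 at sampling, so line and degree of dehydration cannot be told apart in any difference between the lines. Seedlings were 16 days old when water was withheld from the drought pots, control pots stayed well irrigated, and side leaflets of the first trifoliate leaf were taken on day 15. Leaflets of the plants that shared a pot were mixed for RNA, so each array reads a pot rather than a single plant, and each treatment of B47 leaves rests on 3 such biological replicates. No transgene, mutation or chemical agent separates the groups. Each array reports a normalized intensity for 29471 unigenes (transcript sequences assembled from cowpea cDNA), and every level below is a log2 intensity, every change the drought mean minus the well-watered mean on that scale.

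Leaves that run short of water accumulate abscisic acid (ABA), which is made through 9-cis-epoxycarotenoid dioxygenase (NCED), binds receptors of the PYR/PYL family and thereby holds back the 2C-type protein phosphatases (PP2Cs) that keep the pathway off. Well-known later parts of the response are thickening of the waxy cuticle, accumulation of proline, raffinose-type sugars and late embryogenesis abundant (LEA) proteins, and reduced growth and photosynthesis.

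In B47 leaves 2317 unigenes rose and 2412 fell when a change of 2-fold or more with an FDR no higher than 0.01 was required (the thresholds of the study) in limma's moderated test and Benjamini-Hochberg adjustment over all unigenes. This is 16% of all unigenes tested, with 7.86% up and 8.18% down. The median change over all unigenes was 0.08. The called changes reached far beyond the threshold. At least 4-fold changes were seen in 600 unigenes that rose and 1019 that fell, and at least 64-fold changes in 25 and 38. Unigenes that rose went from a median level of 8.24 to 10.13, and those that fell from 10.92 to 8.66. Of those that rose, 47.9% started below 8.09, the lower quartile of all levels, against 15.8% of those that fell. Background was not measured in these values, so the size of a change that starts or ends near the lowest levels (the 5th percentile was 4.3) may be compressed.

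**Figure D1:**
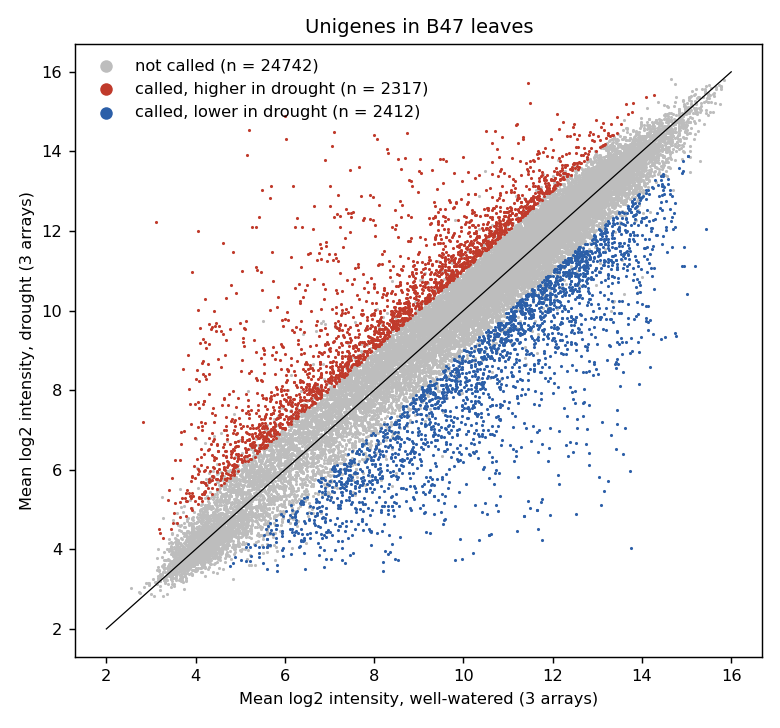
Mean log2 intensity of each unigene in the 3 drought arrays (vertical axis) against the 3 well-watered arrays (horizontal axis) of B47 leaves, with the diagonal marking no change. The 2317 unigenes called higher in drought (red) lie above it and extend to the left edge, where well-watered levels are lowest, and the 2412 called lower (blue) lie below it and extend to the right.

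Replicate arrays of B47 leaves correlated at r of 0.983 to 0.99 across unigenes, which are not independent replicates, and arrays of opposite treatments at 0.909 to 0.938. The 8 yeast control entries read 14.52 to 14.73 in the well-watered and 14.23 to 14.44 in the drought arrays, a mean difference of -0.32 without overlap. With these entries set equal, 4426 unigenes rose and 1660 fell, which lowers the share of falls among the calls from 51% to 27.3% and raises the median over all unigenes to 0.40. By light-harvesting and photosystem markers the arrays have the leaf character that their labels give. The mean level of 23 photosynthesis markers of leaves was 11.44 to 11.72 in well-watered and 9.43 to 9.96 in drought leaves, against 6.10 to 6.58 in B47 roots of either treatment. The 23 are light-harvesting and photosystem unigenes. A Rubisco small chain unigene (UP12_16180), first planned as a leaf marker, is not among them. It read low in well-watered B47 leaves and rose in drought (values below). The 4 unigenes of its role, carbon fixation and chlorophyll synthesis, averaged 8.63 to 9.59 in well-watered leaves and 10.18 to 10.64 in well-watered roots of B47. The mean of 5 root markers (named for iron and nitrate uptake and nicotianamine synthesis) was 7.52 to 7.91 in well-watered and 6.51 to 6.77 in drought leaves, against 12.3 to 13.33 in well-watered and 6.42 to 6.92 in drought roots of B47. The drought root arrays are roots by their source label but leaves by another label. They were taken as roots, with leaf markers at the level of well-watered roots and root markers at that of leaves, and every comparison with B47 roots rests on this. All 5 root markers were named through the study's table of genes regulated by drought in roots. A change in the drought root arrays was thus built into their choice and cannot decide the label. RNA of a leaflet mixes cell types, and fewer cells of a type cannot be told apart from less RNA per cell.

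The study's tables of regulated genes list 2757 unigenes, 1739 with an informative name and 1018 without. Of the 2757, 808 rose (29.3%) and 1127 fell (40.9%), with a median change of -0.54, so the counts given for gene groups below describe members that had mostly been listed for a response on these arrays. The 857 unigenes listed through the table of root genes were chosen without the leaf arrays. In B47 leaves 129 of them rose (15.1%) and 268 fell (31.3%), with a median of -0.43. A unigene carries the name of its best match, and several unigenes of the same name may come from near-identical genes that the probes do not separate.

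**Figure D2:**
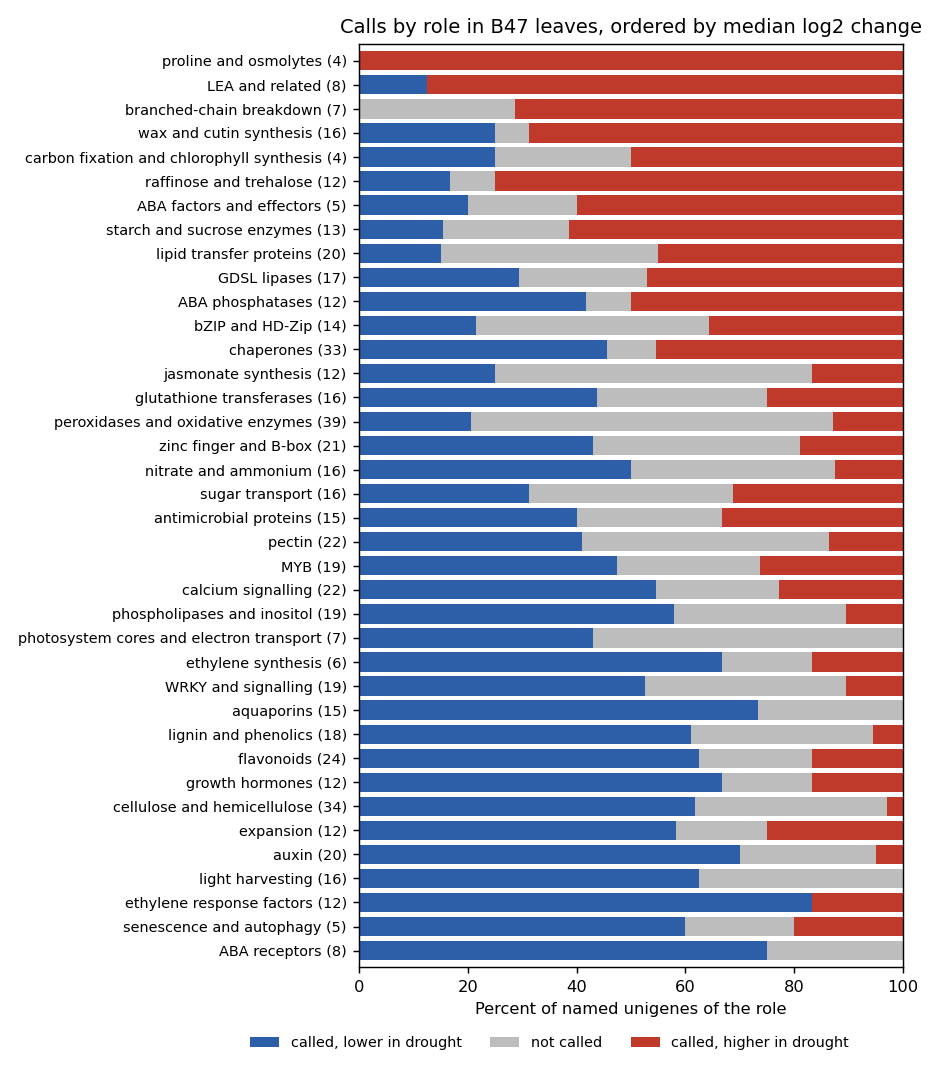
Share of the named unigenes of each role that were called lower (blue), not called (grey) or called higher (red) in drought in B47 leaves, with the number of unigenes in brackets and roles ordered by their median log2 change. Proline, LEA, branched-chain amino acid breakdown and wax roles stand at the top, and ABA receptors, ethylene response factors, light harvesting and auxin near the bottom.

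Genes of the leaf cuticle were among the largest rises of named unigenes. Of 16 unigenes for wax and cutin synthesis, 11 rose and 4 fell, with a median change of 2.93. The 3 unigenes named as maize gl1 (glossy1) homologs and the 2 named CER1, which in Arabidopsis and maize act in making the wax alkanes and related lipids of the leaf surface, rose by 5.74 to 8.76 and started between 3.57 and 8.98. The gl1 homolog UP12_22675 read 5.12, 5.22 and 5.09 in the well-watered arrays and 13.78, 14.02 and 13.91 in the drought arrays, a change of 8.76 (SE 0.51, adjusted p = 2.9e-10). Another, UP12_16935, read 3.81, 3.95 and 3.98 and then 10.7, 11.39 and 10.85, a change of 7.07. CER1 UP12_16936 went from 3.57, 4.24 and 4.37 to 11.71, 12.25 and 12.03, a change of 7.93 (SE 0.31). In UP12_22675, UP12_16935 and UP12_16936 each drought array lay more than 6 log2 units above each well-watered array. Groups that do not overlap are common here, as 58.5% of all unigenes had no overlap between the 3 drought and 3 well-watered arrays. ECERIFERUM 3 (UP12_26496), an alkane-forming partner of CER1 in Arabidopsis, rose by 3.82, 2 CER2-like unigenes rose by 2.00 (UP12_5780) and 3.02 (UP12_26154), and a sn-glycerol-3-phosphate 2-O-acyltransferase of cutin synthesis (UP12_5309) rose by 4.54.

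Enzymes that lengthen fatty acids for wax went both ways. The 3-ketoacyl-CoA synthase 3 unigene UP12_22889 read 13.01, 12.1 and 12.94 in well-watered and 7.59, 7.82 and 7.63 in drought leaves, a change of -5.01 (SE 0.43, adjusted p = 4.3e-08). A putative fatty acid elongase, UP12_10714, fell by 5.22, and synthases 11 (UP12_17670) and 4 (UP12_14709) fell by 2.46 and 1.52. A second synthase 3 unigene, UP12_20848, rose by 1.49 from 3.95, 3.65 and 4.14, and a second putative elongase, UP12_10437, by 2.84 from 3.96, 4.44 and 4.05. The 4 that fell thus started at 9.51 or above, and these relatives that rose started near the lowest levels. The whole group behaved much alike in B128 leaves, where 11 rose and 4 fell (6.31% and 8.35% of all unigenes did). Of the 16, 12 were named through the tables of leaf genes regulated in both lines or in B47. For those listed in both lines this likeness was built in. By the interaction of line and drought 1 of the 16 differed between the lines. This was the acyltransferase UP12_5309, which rose by 7.06 in B128 leaves (difference of -2.52). Over all unigenes 2.42% met the same thresholds for that interaction, 1.53% with the lower response in B47 and 0.892% with the higher. In B47 roots 5 of the 16 rose and none was called down, and 12 met the interaction of organ and drought (16.2% of all unigenes did). Among the 2757 unigenes listed in the study's tables, 307 met the line interaction and 1402 the organ interaction. Counts in gene groups, whose members come from these tables, are to be read beside these. Members listed for leaves of 1 line only had been chosen by the study for a call in that line and not in the other.

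**Figure D3:**
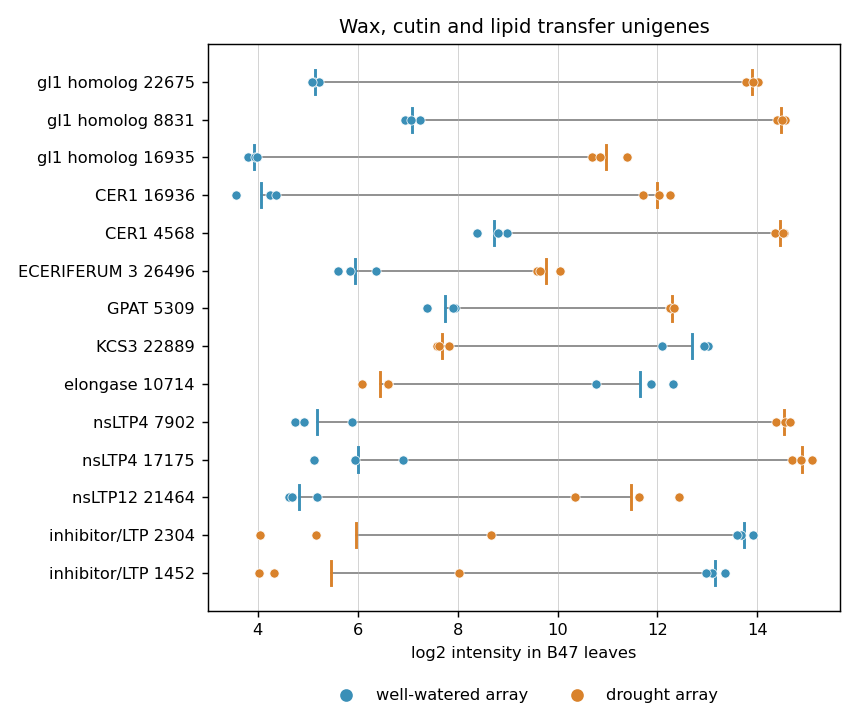
Log2 intensity of wax, cutin and lipid transfer unigenes in each of the 3 well-watered (blue) and 3 drought (orange) arrays of B47 leaves, with vertical ticks at the group means. The gl1 homolog, CER1 and lipid-transfer protein 4 and 12 unigenes moved from below 9 to above 10, while the 2 elongation unigenes and the 2 inhibitor/lipid-transfer unigenes at the bottom moved the other way.

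Lipid transfer proteins, small secreted carriers thought to bring wax and cutin precursors to the surface, included the largest rise on the array. Lipid-transfer protein 4 UP12_7902 read 4.75, 5.89 and 4.93 in well-watered leaves and 14.38, 14.56 and 14.65 in drought leaves, a change of 9.34 (SE 0.26, adjusted p = 8.9e-15). Its other unigene UP12_17175 rose by 8.89 and lipid-transfer protein 12 (UP12_21464) by 6.64. In B128 leaves the same 3 unigenes changed by 0.87, 1.45 and 2.18, and the differences between lines were 8.47, 7.44 and 4.46, each past the thresholds of the interaction. UP12_7902 and UP12_17175 were named through the study's table of leaf genes regulated in B47 and not in B128. A line difference was thus expected from their listing. Mean levels in drought leaves of B128 were 4.94 (UP12_7902) and 6.02 (UP12_17175), far below the drought arrays of B47. Another unigene of the role, UP12_28155, met the interaction, as it fell by 3.19 in B128 leaves and was not called in B47 leaves (0.39). In B47 roots UP12_7902 and UP12_17175 rose too, by 7.91 and 7.56. Of the 20 unigenes of the role 9 rose and 3 fell, with a median of 1.17. The 2 named as both lipid transfer protein and glossy1 homolog rose by 2.92 (UP12_4418) and 2.24 (UP12_21291). The 3 that fell are all named as protease inhibitor, seed storage and lipid transfer proteins, and 2 of them are among the 12 largest named falls. UP12_2304 read 13.67, 13.92 and 13.6 in well-watered leaves and 8.67, 4.05 and 5.17 in drought leaves, a change of -7.77 with an SE of 1.09. Drought replicate 1 lay well above the other drought arrays and below every well-watered array. GDSL lipases, a large hydrolase family of which some members act in cutin polymerisation, split into 8 that rose, led by EXL3 UP12_16587 (5.63), and 5 that fell.

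Proteins that protect cells during drying rose in most cases. Of 8 unigenes of the LEA group 7 rose, with a median of 4.15. A late embryogenesis abundant unigene, UP12_393, read 6.57, 7.5 and 6.93 in well-watered leaves and 12.97, 13.47 and 12.96 in drought leaves, a change of 6.13 (SE 0.29, adjusted p = 1.7e-11). The Em-like protein GEA6 (UP12_2374), a seed LEA protein, rose by 5.47, LEA 4-5 (UP12_6513) by 4.95, seed maturation protein PM38 (UP12_6393) by 4.15, LEA D113 type 1 (UP12_3734) by 4.14, LEA D34 type 1 (UP12_10245) by 3.25 and DROUGHT-INDUCED 21 (UP12_519) by 2.27. The exception was a desiccation-related LEA14 unigene, UP12_1784, which fell by 1.92 from the high levels 13.71, 13.91 and 13.88. The 5 members of the group that the root table names all rose. An oleosin (UP12_14920), a coat protein of seed oil bodies, rose by 3.95.

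Chaperones moved both ways in equal numbers, 15 up and 15 down of 33, with a median of -0.23 that turns to 0.09 when the yeast entries are set equal. The largest rises were those of the chloroplast small heat shock protein 21, UP12_11602 from 7.38, 7.04 and 7.99 to 13.71, 13.88 and 13.01 (6.07) and UP12_5741 by 5.71, followed by heat shock protein 70-4 UP12_9421 (4.04). Other unigenes of the same families fell, such as heat shock protein 70-4 UP12_19094 by 1.83 and an HSP20-like unigene UP12_6353 by 2.77. The steepest fall was that of the J-domain co-chaperone dnaJ 20 (UP12_979), from 11.83, 11.14 and 12.74 to 6.41, 5.61 and 6.66, a change of -5.67. With the DnaJ-like UP12_396, which fell by 4.30, it was 1 of the 2 chaperones whose response differed between lines, by -4.97 and -3.19 against B128 leaves.

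Proline, a compatible solute, is made from glutamate through delta-1-pyrroline-5-carboxylate synthase. The 3 synthase unigenes rose by 5.51 (UP12_22455), 4.42 (UP12_13800) and 4.33 (UP12_5049). UP12_13800 read 8.47, 9.26 and 8.76 in well-watered and 13.23, 13.27 and 13.24 in drought leaves (SE 0.27, adjusted p = 5.4e-10). The dehydrogenase UP12_7838, which acts in the breakdown of proline, rose as well, by 1.51. B47 roots had larger rises of UP12_5049 (7.72) and UP12_13800 (6.70), and both met the organ interaction. The role that holds the breakdown of branched-chain and related amino acids had 5 of 7 unigenes called up, none down and a median of 3.11. A branched-chain keto-acid dehydrogenase unigene, UP12_14346, went from 5.36, 5.19 and 5.83 to 11.02, 11.62 and 10.23, a change of 5.50, a second, UP12_907, rose by 5.14, and an aminotransferase, UP12_26692, by 5.20.

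Genes of the raffinose and trehalose role and of the starch and sucrose role rose in most cases. The starch and sucrose role holds enzymes of breakdown as well as synthesis. In the raffinose and trehalose role 9 of 12 rose and 2 fell, and all 6 members named through the root table rose. Galactinol synthase 2 (UP12_20374), the entry to raffinose synthesis, rose by 2.12, and 5 of the 6 putative galactinol-sucrose galactosyltransferases (raffinose synthases) were called up, the largest by 2.87 (UP12_14622). Trehalose-phosphate phosphatases split. One named J (UP12_21872) went from 7.34, 6.66 and 7.3 to 12.25, 12.56 and 12.25, a change of 5.26, and UP12_22039 rose by 4.55, whereas the 2 unigenes of phosphatase A, UP12_3470 and UP12_3871, fell by 2.69 and 2.66. Starch and sucrose enzymes rose in 8 of 13 cases. Granule-bound starch synthase 1 (UP12_3294) read 10.61, 11.98 and 10.97 in well-watered and 14.68, 14.67 and 14.71 in drought leaves, a change of 3.50 (SE 0.63). The cell wall invertase UP12_8903 rose by 4.20 and sucrose synthase 3 (UP12_2500) by 2.70. Sugar transporters had 5 up and 5 down of 16. All 5 that rose came from low levels, led by the sucrose exporter SWEET12 (UP12_6225), from 6.38, 7.58 and 6.74 to 13.92, 13.6 and 13.85, a change of 6.89. Its SE of 1.47 (adjusted p = 0.001) uses a spread estimated over all 8 groups. The other SWEET12 unigene, UP12_17067, changed by 0.24 and was not called. The 5 that fell, among them sugar transporter 1 (UP12_16017, -1.69) and the sucrose transporter SUC9 (UP12_12246, -1.41), came from levels above 10. Sucrose synthase 4 (UP12_10000) changed by -0.09 and was among the 2 unigenes of the 3 sugar roles that met the line interaction, since it fell by 1.99 in B128 leaves.

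In the ABA pathway, the synthesis enzyme NCED rose and most receptors fell. The 3 NCED unigenes rose by 2.27 (UP12_25297), 1.48 (UP12_1729) and 1.34 (UP12_19012). None of the 3 kept its call in an unmoderated model on the 6 B47 leaf arrays or in a test against a fold change of 2, and UP12_25297 also lost it with limma on the 6 arrays alone (adjusted p = 0.012). Of 8 receptor unigenes 6 fell, with a median of -3.97, and the 5 named through the root table were among them. PYL5 UP12_29344 read 12.01, 10.97 and 11.92 in well-watered leaves and 4.87, 4.98 and 5.1 in drought leaves, a change of -6.65 (SE 0.37, adjusted p = 1.6e-10). The other PYL5 unigenes fell by 6.12 (UP12_29616) and 3.83 (UP12_29343), PYL1 by 4.35 (UP12_14257) and 3.08 (UP12_24309), and PYL4 (UP12_27319) by 4.11. The 2 that were not called lay on the other side of 0. PYR1 UP12_10118 read 12.03, 12.36 and 12.13 and then 12.93, 13.13 and 13.02, a change of 0.85 (adjusted p = 9.7e-05) that stays below the 2-fold limit, and PYL2 UP12_6305 changed by 0.86 (adjusted p = 0.04). None of the 8 receptors met the line interaction, and the B128 leaf changes of the 6 that fell were between -3.44 and -5.66.

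Phosphatases of the PP2C family split by member, with 6 up and 5 down of 12. PP2C 3 UP12_3728 had the largest change, from 7.35, 7.62 and 7.52 to 12.41, 12.72 and 11.92, a rise of 4.86 (SE 0.44). PP2C 56 (UP12_8966) rose by 3.09 and highly ABA-induced PP2C 3 (UP12_12928) by 2.00. Those that fell carry other numbers, such as PP2C 73 (UP12_1673, -2.24). PP2C 2 (UP12_2940) and PP2C 25 (UP12_15751) both fell by 1.67 in B47 leaves while they rose by 1.10 and 1.30 in B128 leaves, and both met the line interaction, with differences of -2.77 and -2.97. Among the factors and effectors, 2 ABA-responsive element binding factors rose, UP12_26761 by 2.55 and UP12_12562 by 1.74, and HVA22d (UP12_17331), an ABA-induced membrane protein, rose by 1.52. The kinase SRK2C (UP12_11396) changed by 0.59 and was not called. The ABA- and drought-induced RING-DUF1117 protein UP12_7254 read 13.45, 12.99 and 13.67 in well-watered and 10.85, 10.9 and 10.76 in drought leaves, a fall of 2.53 against a rise of 1.61 in B128 leaves (difference -4.14).

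**Figure D4:**
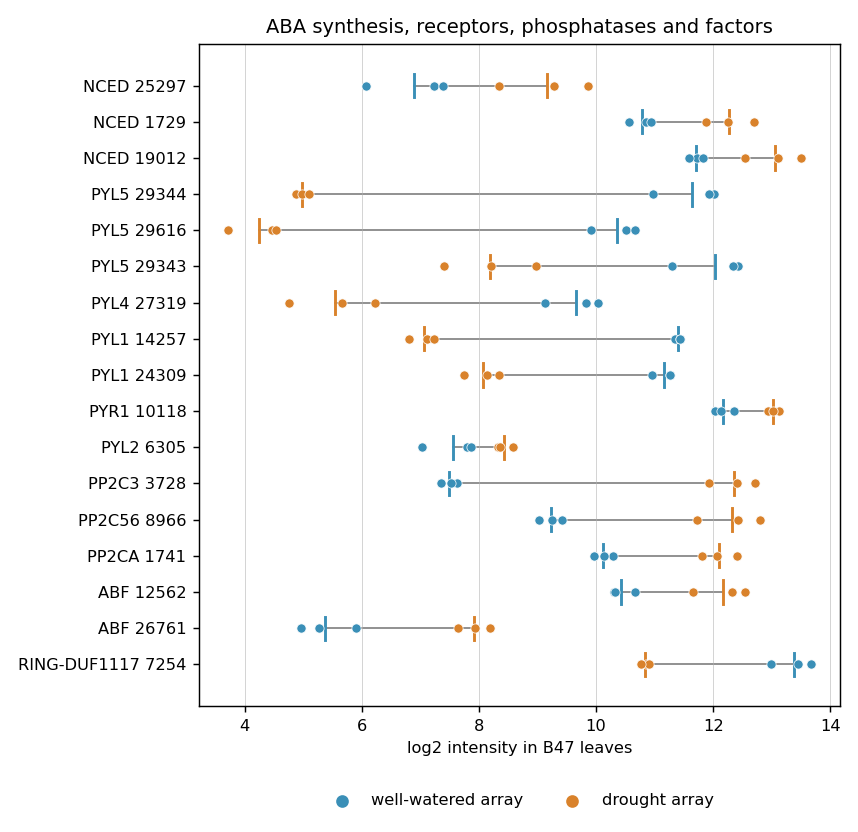
Log2 intensity of ABA pathway unigenes in each well-watered (blue) and drought (orange) array of B47 leaves, with ticks at the means, ordered as synthesis (NCED), receptors (PYL, PYR1), phosphatases (PP2C) and factors. The NCED, PP2C and ABF unigenes shown moved right under drought, the PYL5, PYL4 and PYL1 unigenes and the RING-DUF1117 unigene at the bottom moved left, and PYR1 and PYL2 moved right by less than 1.

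Photosynthesis genes fell in part. None of 16 light-harvesting unigenes rose and 10 fell, with a median of -2.42. The 6 unigenes named as light-harvesting chlorophyll protein complex II all fell, the least of them (UP12_13445) fell by 2.28 and the most (UP12_13704) fell by 4.67, and chlorophyll A/B binding protein 1 (UP12_3346), the main antenna protein of photosystem II, went from 15.28, 14.95 and 15.31 to 11.34, 10.51 and 11.56, a change of -4.05. The other 6 unigenes, 4 of them named for chlorophyll a-b binding proteins and 2 for a light harvesting complex of photosystem II, changed by -0.85 to 0.41 in B47 leaves and were not called. All 6 fell in B128 leaves, by 2.23 to 3.19, and all 6 met the line interaction with a smaller fall in B47. Their names come from the B128 table, so they had been chosen for a call in B128 and not in B47. One of them, UP12_9231, read 9.70, 10.62 and 9.31 in well-watered and 10.64, 9.71 and 10.52 in drought leaves of B47, where the groups overlap. Photosystem cores had 3 falls of 7 (42.9%, against 40.9% of all listed unigenes), among them photosystem II protein D2 (UP12_6451, -1.61).

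Early light-inducible and Rubisco unigenes were higher in drought leaves. The 3 early light-inducible unigenes, relatives of antenna proteins thought to protect against excess light, rose by 2.44 to 2.48 (UP12_6934, UP12_6446 and UP12_13590). Of the Rubisco unigenes, the small chain UP12_16180 went from 6.34, 7.87 and 6.13 to 11.58, 11.48 and 11.97, a change of 4.90, and UP12_13963 rose by 5.17. Both fell or were not called in B47 roots (-1.55 and -1.42). Beta carbonic anhydrase 4 (UP12_15104) fell by 1.84.

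The listed water channels fell or were not called. Of 15 aquaporin unigenes 11 fell and none rose, with a median of -1.56. The 15 were matched by name in the study's tables of regulated genes, and the study counts more putative aquaporins on the array. It also reports TIP3-2, a name that none of the 15 carries, as up-regulated and places it among those responding in B47 only. The 4 unigenes of PIP2-2, a plasma membrane channel, fell by 1.54 to 2.66. UP12_14729 read 10.92, 11.64 and 11.18 in well-watered and 8.74, 8.38 and 8.64 in drought leaves. PIP1-3 (UP12_24860) fell by 2.22 and a plasma membrane intrinsic protein, UP12_4147, by 1.95. A tonoplast gamma channel (UP12_28494), which sits in the vacuole membrane, fell by 1.48. None of the 15 met the line interaction, and 9 met the organ interaction (1402 of all 2757 listed unigenes did). NOD26-like 1;2 behaved otherwise, with changes of -0.40 (UP12_22287) and 0.90 (UP12_22099) that were not called in B47 leaves.

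Cell wall genes fell in large numbers. Of 86 unigenes 48 fell and 8 rose, and 23 of the 48 named through the root table fell and none of them rose. Cellulose and hemicellulose was the largest role, with 21 down and 1 up of 34 and a median of -1.91. Cellulose synthase catalytic subunit 7 (UP12_16891), which builds secondary walls, read 9.37, 8.15 and 9.99 in well-watered and 4.28, 4.39 and 4.65 in drought leaves, a change of -4.73 (SE 0.49, adjusted p = 4.7e-07). Subunit 4 (UP12_18324) fell by 2.71, and all 5 unigenes of cellulose synthase-like B4 fell, by 1.89 to 4.12. Of 10 trichome birefringence-like unigenes, which act in wall polymer acetylation, 6 fell, and the falls of 3 of them (UP12_27070, UP12_14146 and UP12_27887) were smaller than in B128 leaves, with differences of 2.99, 2.21 and 2.64. Wall loosening genes went both ways. Xyloglucan endotransglucosylases, which cut and rejoin the polymers between cellulose fibres, fell in 6 of 7 cases, by up to 3.09 (UP12_15113), while expansin A15 (UP12_7520) rose from 9.85, 9.92 and 10.54 to 13.38, 13.81 and 13.24, a change of 3.37, expansin-like B1 (UP12_20872) by 4.14 and a putative expansin (UP12_20007) by 3.17. Expansin A1 (UP12_6995) fell by 2.07. Pectin enzymes had 9 down and 3 up of 22 (40.9% and 13.6%, against 40.9% and 29.3% of all listed unigenes).

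Lignin and phenolic synthesis had 11 down and 1 up of 18. Phenylalanine ammonia-lyase, the entry enzyme, fell in all 4 unigenes, by 2.52 to 4.43. UP12_1934 read 13.21, 13.23 and 13.19 in well-watered and 8.88, 8.11 and 9.33 in drought leaves. Laccase 4, which joins lignin subunits, fell by 3.18 (UP12_19909) and 3.00 (UP12_9566), and laccase 7 (UP12_9208) was the unigene that rose, by 2.31. Flavonoid unigenes fell in 15 of 24 cases and rose in 4. Of the 9 chalcone synthase unigenes, the first committed step, 5 fell by 3.44 to 3.73 and 1 by 2.21, while UP12_11946 rose from 3.77, 4.53 and 4.16 to 8.51, 8.8 and 8.74, a change of 4.53 (SE 0.60). The 3 flavone synthase unigenes rose together, by 2.75 (UP12_17082), 2.91 (UP12_27325) and 2.95 (UP12_6363). In B128 leaves the changes of the 6 chalcone synthases that fell in B47 were -0.43 to -0.77, and none of these 6 met the line interaction.

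Growth-related hormone genes fell. Of 12 SAUR unigenes, small transcripts raised by auxin within minutes in other plants, 10 fell, with a median of -2.72. UP12_10988 went from 11.8, 11.32 and 12.13 to 4.83, 3.82 and 4.08, a change of -7.51 (SE 1.00, adjusted p = 9.6e-06), and UP12_6892 fell by 5.95. Auxin-responsive IAA4 (UP12_10017), a repressor of auxin signalling, fell by 2.50, while IAA19 (UP12_3818) rose by 2.70. Of the gibberellin, cytokinin and brassinosteroid unigenes 8 of 12 fell, among them brassinosteroid-6-oxidases 2 (UP12_5008, -1.93) and 1 (UP12_23448, -1.90). The rises were a GAST1-like gibberellin-responsive unigene, UP12_6246, by 4.70, and the cytokinin-activating phosphoribohydrolase LOG3 (UP12_2583) by 4.39. LOG1 (UP12_25118) fell by 1.88. TWIN SISTER of FT (UP12_21504), a flowering signal made in leaves, went from 13.54, 13.21 and 13.95 to 5.74, 6.23 and 7.21, a fall of 7.18. The largest named fall was that of inorganic pyrophosphatase 1 (UP12_15570), from 13.02, 13.03 and 13.23 to 4.99, 5.47 and 4.89, a change of -7.98. Non-symbiotic hemoglobin 1 (UP12_5674) fell by 6.71, 2 unigenes of serine carboxypeptidase 24 by 7.21 (UP12_29102) and 7.08 (UP12_13064), and a putative tropine dehydrogenase (UP12_615) by 6.90.

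Ethylene response factors fell in 10 of 12 cases in B47 leaves, and 6 of the 12 met the line interaction, each lower in B47. ERF017 (UP12_312) read 12.87, 11.81 and 12.88 in well-watered and 4.95, 4.88 and 4.88 in drought leaves, a change of -7.62 (SE 0.47, adjusted p = 5.5e-10). In B128 leaves it rose by 4.77, from a mean of 5.30 to 10.08, which makes a difference of -12.39 between the lines. The 3 unigenes of 1-aminocyclopropane-1-carboxylate synthase, the rate-limiting enzyme of ethylene synthesis, fell by 1.46 (UP12_3593), 1.35 (UP12_19796) and 1.06 (UP12_29720) in B47 and rose by 2.84, 2.79 and 3.06 in B128. None of the 6 unigenes of ethylene synthesis was named through the tables of leaf genes regulated in both lines or in B47. A line difference may thus have been built into the listing of these synthases. The oxidases of the next step fell by 2.56 (UP12_15529), rose by 1.52 (UP12_13284) or changed by 0.26 (UP12_522, not called), and none of these 3 met the interaction.

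Several calcium sensors fell in B47 leaves. A putative calmodulin, UP12_2558, went from 14.12, 12.7 and 14.06 to 7.55, 6.51 and 7.1 in B47 leaves, a change of -6.58, against 2.85 in B128 leaves (difference -9.43). CML40 (UP12_3527), a calmodulin-like protein, fell by 3.55 from 11.8, 10.33 and 11.54, against a rise of 3.62 in B128 leaves. CML39 (UP12_14167) fell by 4.84 and was not called in B128 leaves (-0.22). Of 22 calcium unigenes 12 fell and 5 rose in B47 leaves, where B128 leaves had 5 down and 10 up. The 5 that met the line interaction were all lower in B47.

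Among transcription factors and ubiquitin ligases, the zinc finger repressor ZAT11 (UP12_1646) fell by 4.27 in B47 and rose by 3.64 in B128. Another zinc finger protein, UP12_4209, read 13.1, 12.13 and 12.94 in well-watered and 9.01, 8.74 and 9.55 in drought leaves, a fall of 3.63 against a rise of 2.71. DREB1D (UP12_15489), a factor that binds dehydration-responsive promoters in Arabidopsis, read 14, 12.65 and 13.79 in well-watered and 10.16, 10.18 and 10.39 in drought leaves, a fall of 3.24 against a rise of 3.98, with a difference of -7.22. The 2 unigenes of PUB22, a ubiquitin ligase that in Arabidopsis acts against drought and immune signalling, fell by 7.50 (UP12_15004) and 6.73 (UP12_14588). UP12_15004 went from 13.7, 12.28 and 13.73 to 5.91, 5.64 and 5.66, and in B128 leaves both changed by 0.88. A senescence and dehydration-associated unigene, UP12_28940, fell by 3.82 against a rise of 3.22, and a phospholipid hydroperoxide glutathione peroxidase (UP12_23011) fell by 3.19 against a rise of 1.69. In ERF017, the calmodulin, PUB22 and DREB1D well-watered replicate 2 was the lowest of its group, and it still lay above every drought array.

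**Figure D5:**
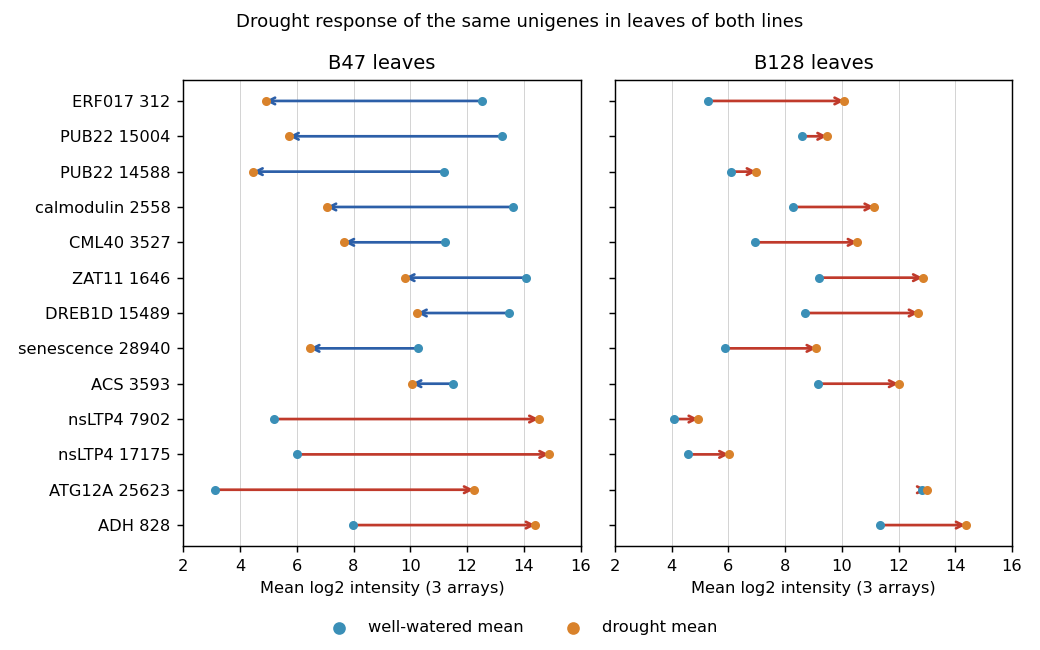
Mean log2 intensity of 13 unigenes in well-watered (blue) and drought (orange) leaves, joined by an arrow from well-watered to drought, in B47 (left panel) and B128 (right panel). The 9 unigenes at the top start higher in B47 than in B128, end lower under drought in B47 and end higher in B128 (the 0.88 of both PUB22 unigenes was not called). The 2 lipid-transfer protein 4 unigenes end far higher in B47, and ATG12A goes from 3.11 in B47 but reads 12.84 and 12.99 in B128.

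Over all unigenes 96 were called down in B47 leaves and up in B128 leaves, and 5 the other way, and all of these met the line interaction. The 96 have a median level of 12.47 in well-watered and 9.32 in drought leaves of B47, and of 9.19 and 11.22 in B128. The mean of the 96 in single arrays was 12.28, 11.44 and 12.12 in well-watered and 9.03, 9.05 and 8.99 in drought leaves of B47. In B128 leaves it ran from 8.44 to 9.43 in well-watered and from 10.72 to 11.22 in drought arrays, so well-watered B47 lay above drought B128, and drought B47 lay within the range of well-watered B128. These levels chose the 96 and are a description. In B47 roots, which the choice did not use but which came from the same plants as the leaves, 70 of the 96 fell too, 1 rose and 25 were not called, where 11.6% of all unigenes fell. Falls in B47 leaves were often shared with roots in any case. By size of the leaf fall, 34.1% to 56.2% of all unigenes called down in B47 leaves were also called down in roots (54.4% for log2 falls of 2 to 4).

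The interaction was met by 714 unigenes in all, with the B47 response lower in 451 and higher in 263, and 453 of the 714 were called in B47 leaves. Without drought replicate 1 of B47 leaves 449 unigenes met it, and without well-watered replicate 3 of B47 leaves 456. Larger changes were shared by both lines more often, and differed between them more often as well. Both counts use a fixed 2-fold limit, which a larger change passes more easily, so these trends are in part set by the thresholds. Of rises between 2 and 4-fold 37.1% were also called up in B128 leaves and 3.67% met the interaction, and of rises of at least 64-fold 88% and 32%. For falls the shares called in B128 were 52.1% and 71.1%, and those with the interaction 10.1% and 31.6%. The 2 lines have their own well-watered arrays. Besides the lipid-transfer proteins, rises that met the interaction included ATG12A (UP12_25623), a ubiquitin-like protein of autophagy, from 3.19, 2.83 and 3.33 to 12.51, 11.33 and 12.87, a change of 9.12 (SE 0.29), where B128 leaves changed by 0.15 from a well-watered mean of 12.84. Well-watered B47 leaves thus read this unigene at the bottom of the scale while B128 leaves read it high in both treatments. In B47 roots ATG12A went from a mean of 3.7 to 12.77, a change of 9.08 that did not meet the organ interaction (difference of 0.04). ATG12A was named through the table of leaf genes regulated in B47 and not in B128, so a line difference was expected. Alcohol dehydrogenase rose in both lines, more in B47, from 7.21, 9.31 and 7.47 to 14.38, 14.57 and 14.27 (UP12_828, 6.41 against 3.01 in B128) and by 6.24 (UP12_7916) against 2.95. Glutathione S-transferase PHI 9, a detoxifying enzyme, rose less in B47, by 2.03 (UP12_17903), 2.05 (UP12_2664) and 2.21 (UP12_1325) against 6.25, 6.35 and 6.09.

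Defence genes had 16 falls and 7 rises among 34 (47.1% and 20.6%). This is near the 40.9% and 29.3% of all listed unigenes. The antimicrobial enzymes beta-1,3-glucanase 1 (UP12_14333) and basic chitinase (UP12_3663) fell by 5.85 and 5.67, and pathogenesis-related protein 1 (UP12_2883) by 4.62. UP12_3663 read 12.29, 11.79 and 12.81 in well-watered and 6.54, 6.39 and 6.93 in drought leaves. Trypsin inhibitors, which act against insects and microbes, went the other way in all 3 unigenes. UP12_70 rose from 10.19, 12.66 and 11.5 to 15.75, 15.72 and 15.69, a change of 4.27 that brought it near the top of the scale. WRKY factors of immune signalling fell in 6 of 8 cases, by up to 2.68 (WRKY 75, UP12_11532), and WRKY 17 (UP12_25220), which fell by 2.50, met the line interaction (0.39 in B128 leaves). In jasmonate synthesis allene oxide cyclase 3 (UP12_2391) fell from 15.05, 14.63 and 15.16 to 11.55, 10.81 and 11.02, a change of -3.82 (difference to B128 leaves of -1.54), while a lipoxygenase (UP12_20024) rose by 2.92. The 2 unigenes of the jasmonate repressor TIFY 3B fell by 2.44 (UP12_20962) and 2.23 (UP12_139).

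Nitrate uptake and reduction fell in 8 of 16 cases and rose in 2. Nitrate reductase NR1 (UP12_11893), the first step of nitrate use, read 13.9, 13.27 and 13.17 in well-watered and 9.15, 8.72 and 8.46 in drought leaves, a change of -4.67 (SE 0.25). Its other unigene UP12_6318 fell by 2.42, and the nitrate transporter UP12_20462 by 3.56, against a fall of 1.31 in B128 leaves (difference of -2.25). Inositol and phospholipid genes fell in 11 of 19 cases, while the 2 inositol oxygenase 1 unigenes rose by 2.78 (UP12_2008) and 3.04 (UP12_21849). Redox enzymes fell in 15 and rose in 9 of 55 cases, with 26 of the 39 peroxidases and related enzymes not called. The shares of 27.3% and 16.4% are below those of all listed unigenes (40.9% and 29.3%). Glutaredoxin C11 (UP12_1511) fell by 4.02, and aldehyde dehydrogenase 7B4, which removes reactive aldehydes, rose by 2.55 to 3.64 (UP12_3553, UP12_14700 and UP12_12681).

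Among other transcription factors, the homeodomain-leucine zipper ATHB-12 (UP12_21526), an ABA-responsive growth regulator in Arabidopsis, rose from 7.83, 8.84 and 8.24 to 14.03, 14.48 and 13.35, a change of 5.65 (SE 0.37), and its relative ATHB-7 rose by 2.82 (UP12_4009) and 2.20 (UP12_5123). Basic leucine-zipper 42 (UP12_1535) fell by 5.49 and WUSCHEL-related homeobox 4 (UP12_18059), a factor of vascular stem cells, by 4.92. All 3 NAC unigenes fell, by 1.73 to 3.80. MYB factors had 9 down and 5 up of 19 (47.4% and 26.3%), near the 40.9% and 29.3% of all listed unigenes. Their changes ran from myb domain protein 14 (UP12_2886, -4.53) to myb-related protein M4 (UP12_13646, 3.16). The zinc finger protein SOMNUS (UP12_12548), which represses seed germination in Arabidopsis, rose by 4.24, against 6.27 in B128 leaves (difference of -2.03).

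Leaves and roots of B47 differed in 4782 unigenes by the organ interaction, of which 1774 were called in leaves. The photosynthesis markers read 6.11 to 6.58 in the drought and 6.10 to 6.53 in the well-watered roots of B47. Of falls of at least 64-fold in leaves 44.7% were called down in roots and 81.6% met the organ interaction, and of rises of that size 80% were called up in roots. The organ interaction was met by 12 of 16 wax, 14 of 17 GDSL and 8 of 16 light-harvesting unigenes, and by 2 of 8 LEA, 2 of 12 phosphatase and 3 of 8 receptor unigenes. Of all 2757 listed unigenes 1402 met it, a share close to that of the light-harvesting ones. In opposite directions, 153 unigenes fell in leaves and rose in roots and 111 rose in leaves and fell in roots. Chalcone synthase UP12_11946, with 4.53 in leaves and -4.02 in roots, and the J-domain protein UP12_396, with -4.30 and 2.83, are examples.

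Of the 4729 calls in B47 leaves 2794 are of unigenes that the tables used here do not list, and the largest fall of all is listed there without a gene name. UP12_7111 read 14.01, 13.31 and 13.97 in well-watered and 4.05, 4.04 and 4.04 in drought leaves, a change of -9.72 (SE 0.23, adjusted p = 1.1e-15). It fell in B128 leaves too, by 8.07, and read near 4 in B47 roots of both treatments (4.03 and 4.30), so of these groups the well-watered leaves held its high levels. Beta glucosidase 17 (UP12_5992), among the 12 largest named rises, rose by 8.29.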

How the data were processed

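Per the labels and the study's methods, RNA of each pot was hybridised in 1 colour to a custom NimbleGen array with 4 probes per unigene. The deposited values are linear intensities, which the authors quantile normalized and summarised per unigene by RMA, so a shift shared by most transcripts would not appear in them. All 24 arrays were read and no per-sample column was left out. Values were taken to log2, the 8 yeast control entries were set apart, and 29471 unigenes were fitted with limma 3.58.1 in R 4.3.3 as 8 groups (16 residual and 2.88 prior degrees of freedom). A call needed a change of at least 2-fold and an FDR of at most 0.01 (Benjamini-Hochberg). The study names these thresholds but no test. Differences between lines or organs were tested as interactions, with the same thresholds. Adjusted p-values in the text are from these fits. Leaves and roots came from the same plants, and the fit treated their arrays as independent. With 3 arrays per group their number limits the precision.

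The members, gene lists and roles were chosen with earlier results of these data known. Unigenes were named by rule: the 12 largest named rises and falls, up to 3 of the largest changes per role, members of small roles, and list members that met the line interaction. Some others were added after their values were seen. Gene names came from the annotation columns of the study's tables of drought-regulated unigenes, whose fold changes were not used, so named unigenes had been selected for a response. Alternatives used fewer arrays, blocks by replicate number, other estimates of spread, other thresholds, a filter on low values, other scalings, or 1 array less.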

Additional observations from a re-analysis of the deposited data

Results flagged for a closer look

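The drought response differed between B47 and B128 leaves, by the test of the interaction, in 714 unigenes, and between leaves and roots of B47 in 4782. Of the unigenes named in the report, 14 were called in opposite directions in the 2 lines and met the interaction, each down in B47 and up in B128. The differences (B47 minus B128, log2) were -12.39 for ERF017 (UP12_312), -9.43 for the putative calmodulin UP12_2558, -7.91 for ZAT11 (UP12_1646) and -7.22 for DREB1D (UP12_15489). They were -7.17 for CML40 (UP12_3527), -7.04 for the senescence/dehydration-associated unigene UP12_28940, -6.34 for the zinc finger protein UP12_4209 and -4.88 for the glutathione peroxidase UP12_23011. For the 1-aminocyclopropane-1-carboxylate synthases they were -4.3 (UP12_3593), -4.14 (UP12_19796) and -4.12 (UP12_29720), for the RING-DUF1117 protein UP12_7254 -4.14, and for PP2C 25 (UP12_15751) and PP2C 2 (UP12_2940) -2.97 and -2.77. The call of UP12_29720 in B47 leaves (-1.06) is lost when any 1 of 4 of the 6 arrays is left out.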

How the results depend on the processing

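The 2317 rises and 2412 falls became 796 and 897 with an unmoderated model on the 6 arrays, 474 and 742 in a test against a fold change of 2, 1500 rises without the 25% lowest unigenes (fewer were tested), and 4426 rises with 27.3% falls among the calls when the yeast entries were set equal. The line interaction count (714) became 392 on the 12 leaf arrays, 1486 with array weights, 168 in the unmoderated model, 1460 at an FDR of 0.05 and 184 against a fold change of 2. The organ interaction count (4782) became 7313 with array weights, 1133 against a fold change of 2 and 7322 with the yeast entries set equal. Apart from fewer unigenes, a changed threshold or a changed scale, the cause was not tested. Leaving out single arrays gave 1893 to 2475 rises, 2023 to 2384 falls, 49.1 to 52.1% falls, 449 to 921 line and 3854 to 4827 organ interactions.

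Of the 182 unigenes named, 172 were called. Of these 47 lost the call against a fold change of 2, 52 in the unmoderated model, 19 with the replicate block on the 6 B47 leaf arrays, 8 with the 12 leaf arrays, 5 with limma on the 6 arrays, 4 with the yeast entries set equal, 2 with the block on all arrays and 1 with array weights. Leaving out 1 array ended 7 of these calls (limma, adjusted p in parentheses): UP12_16017 without any of the 6 arrays (up to 0.024), UP12_6995 without any but drought replicate 1 (up to 0.051), UP12_29720 without well-watered or drought replicate 1 or 3 (up to 0.057), UP12_6246 without well-watered replicate 1 or 3 or drought replicate 1 or 2 (up to 0.017), UP12_6451 without well-watered replicate 1 or 2 or drought replicate 1 or 3 (up to 0.012), UP12_12246 without well-watered replicate 1 or drought replicate 3 (0.012) and UP12_27887 without well-watered replicate 1 (0.011). Sucrose synthase 4 (UP12_10000, -0.09, not called) turned to 0.24 with the yeast entries set equal, and ran from -0.24 to 0.14 when single arrays were left out (0.14 without well-watered replicate 2). Same-numbered arrays did not deviate together (correlations of 0.0277, -0.0317 and 0.11), so the numbers were not taken as pairs. With the replicate number as a block, counts were 2287 and 2390 over all arrays and 1589 and 1707 over the 6 B47 leaf arrays. Low signal limits unigenes near the 5th percentile of 4.3.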
